A study of Homo sapiens with 14 samples.

Results

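The genes described here are those of mitochondrial oxidative phosphorylation. They were taken by symbol from the deposited table of m6A sites: every gene whose name begins with NDUF, with COX and a digit, with ATP5, with UQCR, or with SDH followed by A, B, C or D. This gave 98 of 13756 genes and 778 of 407343 sites, and the rule used no measured value. NDUFA4 is not analysed here, and the subunits encoded in the mitochondrial genome carry other symbols and do not fall under the rule.

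The study measured N6-methyladenosine (m6A), the most common internal modification of mRNA, in 6 human cancer cell lines by GLORI, a chemical method with glyoxal and nitrite that turns adenosine without the mark into a base sequenced as G, whereas m6A resists and is sequenced as A. A549 is labelled a lung carcinoma line, OE21 an oesophageal carcinoma line, and CAOV3, COV644, EFO21 and SKOV3 are labelled ovarian carcinoma lines. Polyadenylated RNA of each line was taken after 24 h with the solvent DMSO, and CAOV3 was also taken after 24 h with 1 uM STM3675, a compound known here by its code, in a study whose title concerns inhibition of METTL3, the enzyme that writes most mRNA m6A. Each of the 7 groups had 2 libraries, 14 in all. The labels do not say whether the 2 came from separate cultures, so the tests below measure only the spread between libraries, which may be technical, and only 1 line was treated.

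Oxidative phosphorylation is the final stage of respiration. Complex I, which accepts electrons from NADH, and complex II, which accepts them from succinate, pass electrons through complex III to complex IV, which reduces oxygen; complexes I, III and IV pump protons across the inner mitochondrial membrane, and ATP synthase uses that gradient to make ATP. The NDUF genes encode complex I subunits and their assembly factors (NDUFAF), the SDH genes complex II and its assembly factors (SDHAF), UQCR genes complex III, COX genes complex IV and its assembly factors, and ATP5 genes ATP synthase. METTL3 methylates adenosines mostly within the motif DRACH (D is A, G or T in DNA letters, R is A or G, H is A, C or T, and the A before C is the one methylated), and mostly in last exons and long internal exons.

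Reads summed over all listed sites ranged from 14047302 to 28663588 per library, with a median of 16 to 32 reads at a site, and every listed site had at least 20 reads and a level of at least 25% in 1 or more DMSO libraries. A level is the percentage of reads that kept A. Because sites entered the list by their DMSO level, the DMSO level of a site with few reads can be overstated against the treated level. Squamous markers KRT5, KRT6A, TP63 and SOX2 were highest in OE21 (4067, 3018, 290 and 195 RPM). RPM stands for reads at a gene's listed sites, scaled by the library total after adjustment with trimmed means (TMM). PAX8, a marker of many ovarian carcinomas, lay at 22.4 to 362 RPM in the 4 ovarian lines, although OE21 also had 22.8. Other markers went against the labels: the lung marker NKX2-1 was at 0.109 RPM in A549 but 19.9 in COV644 and 12.2 in OE21, and the ovarian marker WT1 was at 0.0266 to 1.72 in the ovarian lines but 8.37 in A549. MSLN was at 12.9 to 1434 RPM in the ovarian lines, 1.45 in A549 and 1.66 in OE21, while the epithelial genes EPCAM, KRT8 and KRT18 ranged over the 6 lines from 3.41 to 430, 1.36 to 230 and 12.3 to 329 RPM.

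Oxidative phosphorylation genes carried few sites. The median was 4.5 listed sites and 1 DRACH site per gene, against 20 and 7 over all genes, and 18 of the 98 genes had a single site. Of the 778 sites, 220 (28.3%) were in DRACH, against 37.9% of all sites in genes, and 37 of 98 genes had no DRACH site, as did 818 of 13756 genes in all. NDUFS1, the largest core subunit of complex I, had the most sites (41), followed by COX15, needed for the haem of complex IV, and COX19, a copper-related assembly factor of complex IV (38 each). The most DRACH sites were in COX19 (13), in the complex II assembly factor SDHAF1 (12) and in the accessory complex I subunit NDUFA10 (11).

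The 76 genes for subunits and the 21 for assembly factors are given apart, without the inhibitor ATP5IF1. Subunit genes had a median of 4 sites, 26.7% of them in DRACH, and 33 of 76 had no DRACH site. Assembly factor genes had a median of 13 sites, 31.3% in DRACH, and 3 of 21 had no DRACH site. Among other short housekeeping genes, 63 cytosolic ribosomal protein genes had 24.5% of sites in DRACH and 35 proteasome genes 27.8%, close to the 28.3% above. A further list of 52 genes tied to oxidative phosphorylation, with symbols outside the rule, had 36.8%. It held mostly assembly factors, and also regulators of mitochondrial biogenesis such as ESRRA and GABPA. Few sites per gene were also found in the ribosomal protein genes (median 3, with 1 in DRACH) and the proteasome genes (7 and 2). The further 52 genes had medians of 18 and 5.5.

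By exon, 475 sites (61.1%) lay in last exons, 185 (23.8%) in internal exons, 98 (12.6%) in first exons and 20 in single-exon genes, against 53.3%, 39.7% and 5.05% of all sites for the first 3 classes. First exons held 7.43% of sites in the ribosomal protein genes and 15.1% in the proteasome genes. Of the 220 DRACH sites, 158 (71.8%) were in last exons, against 65.6% of all DRACH sites. The internal exons that held DRACH sites were short: their width had a median of 141 bases, against 411 bases over all genes. This median was 111 bases in the ribosomal protein genes, 144 in the proteasome genes and 721 in the further list of genes outside the rule. The letters around the sites, read on the transcript strand with the methylated A in the middle, were led by GGACT (31 sites), GGACA (29), GGACC (25), GAACT (24) and AGACT (22). GGACT made up 3.98% of these sites and 6.11% of all sites, and GGACC 3.21% and 3.10%. Most sites passed the listing limits in 1 line only (564 of 778, or 72.5%, against 71.5% over all genes), and 58 DRACH sites passed in all 6 lines (26.4%, against 20.1%).

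In CAOV3, m6A at most DRACH sites of oxidative phosphorylation genes fell to near 11% with STM3675. With at least 20 reads in each of the 4 libraries, 412 sites could be tested, and 91 fell and 2 rose at an adjusted p under 0.05 (quasi-binomial test with limma's moderated dispersion). Over all sites tested 35.2% fell and 0.309% rose. Of the DRACH sites 80 of 124 fell (64.5%, against 73.9% of all DRACH sites), and of the others 11 of 288 (3.82%, against 7.87%). The mean DRACH level was 40.2% and 40.4% in the DMSO libraries and 10.8% and 11.2% in the STM3675 libraries, so the groups lay far apart, at 40.3 ± 0.126% and 11 ± 0.287% (SD, n = 2). The mean over the other sites moved little, from 14.4 ± 0.224% to 12.6 ± 0.519% (SD, n = 2).

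Falls were most frequent at high starting levels, in DRACH and in last exons. All 41 tested sites at 50% or more with DMSO fell, as did 99.8% of such sites over all genes. Of the 11 fallen sites outside DRACH, 8 had G as the last letter (such as GGACG), which alone keeps them out of DRACH; of the 13 tested sites of this kind 8 fell (61.5%), against 42.3% of such sites over all genes. DRACH sites of last exons fell in 73 of 90 cases (81.1%, all genes 81.7%), those of internal exons in 6 of 21 (28.6%, all genes 56.6%), and those of first exons in 0 of 12 (all genes 55.5%). First-exon DRACH sites of these genes averaged 17.1% in DMSO and 14.6% in treated libraries, while those of first exons over all genes had 38.7% and 13.1%. Neighbouring sites are covered by the same reads, so sites are not independent of each other.

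**Figure D1:**
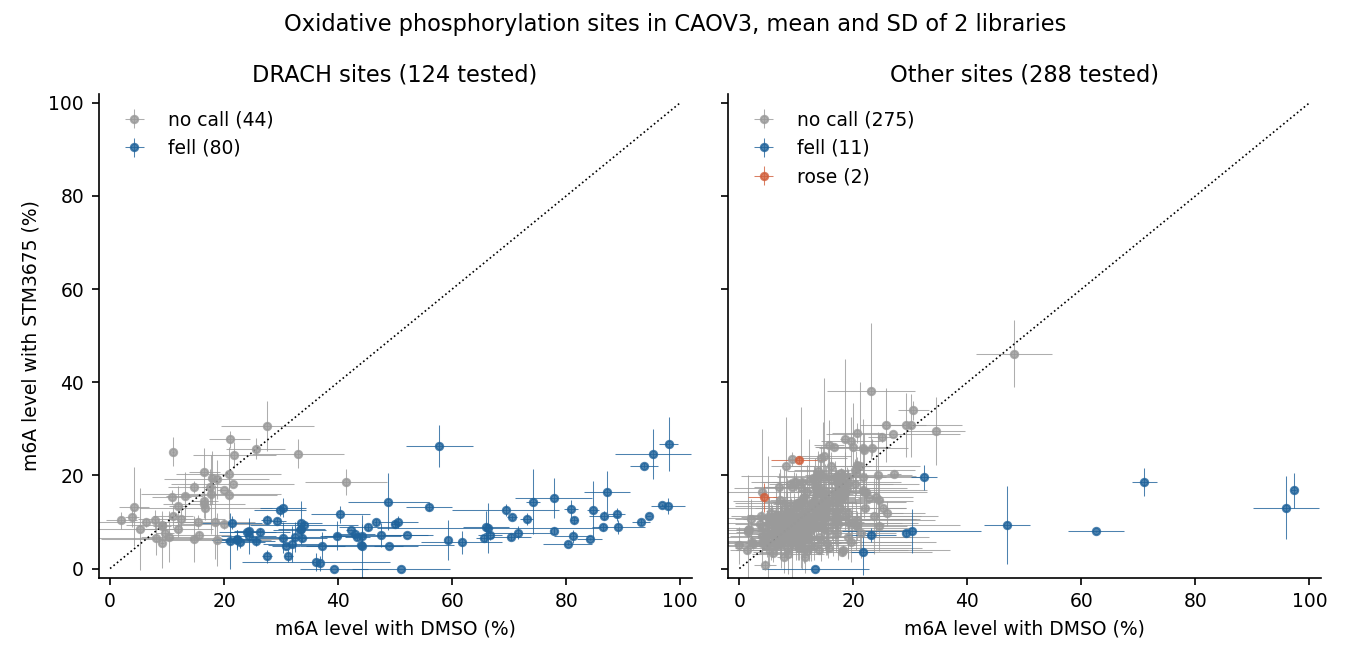
m6A level of each tested oxidative phosphorylation site in CAOV3 with DMSO (horizontal axis, %) and with STM3675 (vertical axis, %), as mean and SD of 2 libraries, for 124 DRACH sites (left) and 288 others (right), with a dotted line of equality. The 80 fallen DRACH sites lie along the bottom at any starting level, and most other sites crowd the low corner near the line.

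Summed over the tested sites of a gene, 35 of 86 genes fell and 0 rose, where 81.7% of all genes tested fell and 0.0623% rose. Split by DRACH content, 34 of 50 genes that had at least 1 DRACH site in the test fell (all such genes 89.0%), and 1 of the 36 that had none (2.78%, all such genes 8.29%), SDHAF4, through a GGACG site. Of the 2 kinds of gene, 21 of 64 tested subunit genes and 14 of 21 assembly factor genes fell. DRACH sites fell in 39 of 72 cases in subunit genes (54.2%) and in 41 of 52 cases in assembly factor genes (78.8%), from median levels of 26.5% and 44.7% with DMSO. The median change of the 86 genes was a fall by 4.29 percentage points, against 20.1 over all genes.

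Few genes of complex I, the entry point for NADH, fell, where 81.7% of all genes tested did. Among its core subunit genes NDUFS1 did, with 17.8% and 23.6% of reads unconverted with DMSO and 11.6% and 11.9% with STM3675 (adjusted p = 0.000454). Its fallen DRACH site is a GGACA in the last exon (chromosome 2, position 206124142, minus strand), at 29.9% and 36.6% with DMSO and 7.80% and 8.62% with STM3675. NDUFV1, which binds NADH and the flavin, stood at 14.2% and 15.5% with DMSO and 14.8% and 17.3% with STM3675 (adjusted p = 0.574), and the groups overlapped.

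Of the 25 tested accessory subunit genes of complex I, 14 had a DRACH site in the test. Among the 25, 7 fell, all with such a site: NDUFA2, NDUFA5, NDUFA6, NDUFA8, NDUFA10, NDUFC2 and NDUFV3. NDUFA5 had one of the strongest, a TGACT in the last exon 113 bases from its start (chromosome 7, position 123542108) at 66.8% and 64.6% with DMSO and 6.08% and 7.19% with STM3675. NDUFA6 had a GGACC (chromosome 22, position 42086049) at 67.4% and 75.8%, then 6.69% and 8.70%. NDUFV3, a subunit with a long alternative internal exon, had a GAACT in the last exon (chromosome 21, position 42908964) at 72.9% and 67.8%, then 7.21% and 6.36%. In each of these the treated libraries lay far below both DMSO libraries, but only sites without overlap between the groups could be named here. NDUFA10 fell only narrowly as a gene, from 15.5% and 19.4% to 13.4% and 11.1% (adjusted p = 0.00848), and lost the call under limma, with a limit of 50 reads and in 2 of the 4 fits with a library left out.

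The complex I assembly factors NDUFAF1, NDUFAF4, NDUFAF7 and NDUFAF8 fell, 4 of 8 tested and 4 of the 5 with a DRACH site in the test. NDUFAF1, which helps build the membrane arm, had the only site outside a last exon among the 15 largest falls, a GAACT in its internal exon 2 (chromosome 15, position 41396564), at 83.3% and 77.2% with DMSO and 5.56% and 5.17% with STM3675. NDUFAF7, a mitochondrial arginine methyltransferase, had a GAACT (chromosome 2, position 37248335) at 78.9% and 83.4%, then 5.88% and 7.94%. NDUFAF8 had an AGACT (chromosome 17, position 81241264) at 82.6% and 73.1%, then 12.1% and 18.2%, the highest treated level of these 3. The NDUFAF4 gene level went from 35.8% and 41.5% to 10.2% and 6.41% (adjusted p = 1.01e-06).

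In complex II the 2 catalytic subunits had no call while the membrane anchors and all assembly factors fell. SDHA, the flavoprotein that oxidises succinate, stood at 9.28% and 9.49% with DMSO and 8.25% and 9.06% with STM3675 (adjusted p = 0.649). The iron-sulfur subunit SDHB was at 4.55% and 0%, then 6.67% and 4.76%. Neither had a call, and levels this low with DMSO could hardly show a fall. SDHC, a membrane anchor, went from 38.7% and 35.7% to 11.4% and 9.70% and SDHD, the other anchor, from 22.2% and 25.5% to 6.11% and 8.03%. All 4 assembly factor genes fell, and 8 of their 9 tested DRACH sites.

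SDHAF2, which attaches flavin to SDHA, had a GGACG in its last exon (chromosome 11, position 61446131) at 97.0% and 97.6% with DMSO and 14.2% and 19.5% with STM3675. The iron-sulfur factor SDHAF1 fell as a gene from 67.1% and 64.1% to 9.91% and 11.6%, with an AGACT in its single exon (chromosome 19, position 35996059) at 85.4% and 83.9%, then 17.0% and 8.16%. SDHAF3 had a GGACA (chromosome 7, position 97181134) at 73.8% and 72.3%, then 11.5% and 9.70%. SDHAF4 had a GGACG (chromosome 6, position 70588706) at 66.1% and 59.2%, then 8.11% and 7.89%. No treated library overlapped a DMSO library at these sites, but that was a condition for naming those of SDHAF2, SDHAF3 and SDHAF4.

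Of complex III, 5 of 8 tested genes fell, the 5 with a DRACH site in the test: UQCR10, UQCR11, UQCRC2, UQCRFS1 and UQCRH. UQCRFS1, the Rieske iron-sulfur protein, had the highest summed level of the 86 tested genes, at 70.8% and 72.7% summed over its sites with DMSO and 10.4% and 10.3% with STM3675 (adjusted p = 8.3e-21). Of its 9 tested DRACH sites the 6 that fell were all in the last exon; the strongest, a GGACT 621 bases from the exon's start (chromosome 19, position 29207538), was at 97.0% and 96.8%, then 13.4% and 13.8%, over 1375 to 3944 reads. An AGACT 6 bases closer to the exon's start (position 29207544) was at 92.0% and 94.3%, then 10.3% and 9.44%, and both sites were among the best covered of the set.

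UQCR10, a small subunit of complex III, had an AGACT (chromosome 22, position 29769872) at 94.1% and 94.8% with DMSO and 11.4% and 11.3% with STM3675. UQCR11, another small subunit, had a TGACT (chromosome 19, position 1598004) at 96.8% and 99.1%, then 30.8% and 22.6%, over 26 to 113 reads. Both treated libraries lay below DMSO but above the 11% left at the UQCR10 site. The core protein UQCRC1 had no call as a gene, at 9.07% and 11%, then 15.3% and 14.3% (adjusted p = 0.0682), although limma on the arcsine scale called it higher (adjusted p = 0.0259).

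Among complex IV subunits COX4I1, COX6A1 and COX7A2L fell, 3 of 7 tested, and among its assembly factors COX11, COX14, COX15, COX16, COX19 and COX20, 6 of 9. Only 3 of these subunit genes and 8 of the assembly factor genes had a DRACH site in the test. COX7A2L, which links complexes III and IV into supercomplexes, had a GGACT (chromosome 2, position 42351203) at 81.9% and 80.9% with DMSO and 9.88% and 10.9% with STM3675. COX5A, a matrix-facing subunit with 21.7% and 17.5%, then 16.9% and 18.9%, had no call (adjusted p = 0.520). COX7C, the subunit with the lowest level of this complex, was at 3.23% and 0%, then 9.09% and 7.69%, with no call, and a level this low could hardly show a fall. COX4I1 was near the threshold, from 21.5% and 25.3% to 15.3% and 17.3% (adjusted p = 0.0423), and lost the call in 3 of the 4 fits with a library left out.

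COX15 makes the haem a of complex IV, and its GAACT (chromosome 10, position 99714523) went from 87.1% and 85.9% with DMSO to 8.26% and 9.42% with STM3675 (adjusted p = 7.56e-74). COX14, an early assembly factor of the COX1 module, had a GAACT (chromosome 12, position 50120219) at 87.8% and 89.9%, then 10.7% and 12.6%. COX16 had a GGACT (chromosome 14, position 70326276) at 65.1% and 68.1%, then 7.86% and 6.49%. COX10, the partner of COX15 in haem synthesis, had no call over all its sites, at 19.6% and 10.6%, then 9.81% and 10.2% (adjusted p = 0.0940), although its AGACT (chromosome 17, position 14207111) alone went from 87.2% to 16.4% in the means. Among sites at 50% or more with DMSO and 50 or more reads in every library, the largest shares were kept in COX19, COX6A1 and SDHAF2, and COX19 had a GGACG (chromosome 7, position 969332) at 69.5% and 72.6%, then 16.5% and 20.7%, a ratio of 0.262.

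Few ATP synthase genes fell: ATP5F1D, ATP5MC3 and ATP5MJ, 3 of 13 tested, where 81.7% of all genes tested did. Of the 13, only 6 had a DRACH site in the test, and all 3 falls were among them. ATP5MJ, a small membrane subunit with 1 tested DRACH site, had a GGACT (chromosome 14, position 103912365) at 41.8% and 44.9% with DMSO and 7.26% and 6.36% with STM3675. Too few reads covered ATP5F1A, the other subunit of the catalytic head, for a test. The catalytic subunit ATP5F1B stood at 19.7% and 18.3%, then 16.4% and 20.4% (adjusted p = 0.806), and the inhibitor ATP5IF1 at 12.2% and 14.6%, then 14.1% and 12.9% (adjusted p = 0.965). In both the groups overlapped. The 15 largest falls at sites with 50 or more reads in every library were taken 1 per gene and are all named above. Each had an adjusted p of 3.37e-15 or lower in the quasi-binomial test. Among them 14 of the 15 sites were in last exons, and 13 of 15 lay within 300 bases of the start of a last exon. The share of all sites within that distance was not computed. Of all 80 fallen DRACH sites 73 were in last exons (38701 of 52611 over all genes). Listed last-exon DRACH sites of oxidative phosphorylation genes lay a median of 336.5 bases from the exon's start, against 661 over all genes (lower quartiles 160.75 and 283).

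**Figure D2:**
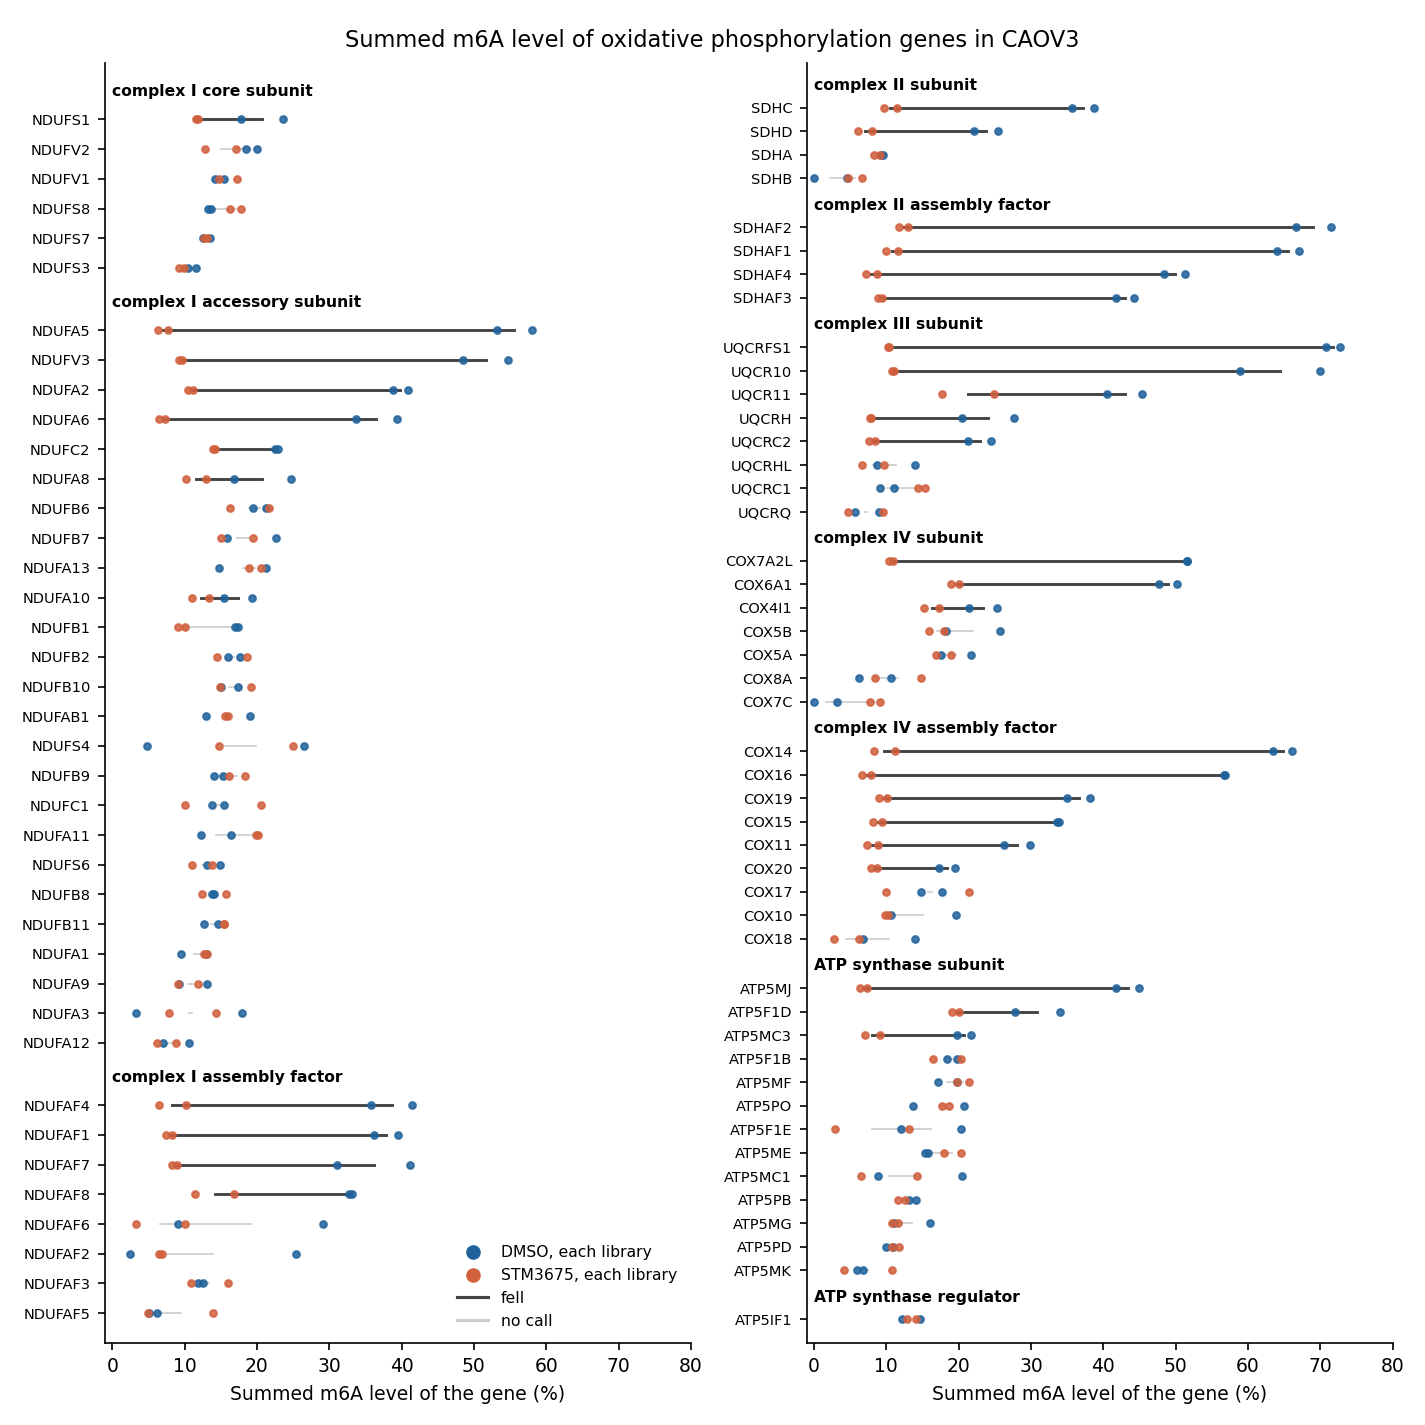
Summed m6A level (%) of testable genes in CAOV3, 1 left out, by complex and role, with each DMSO library in blue and each STM3675 library in orange, joined by a dark line where the gene fell. Assembly factors of complexes II and IV and UQCRFS1 show the longest lines, and most complex I core and ATP synthase genes have no dark line.

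The 2 sites that rose were low and weakly supported. The first, a CGACT in the first exon of the complex I accessory subunit NDUFB7 (chromosome 19, position 14572009), was at 6.94% and 13.8% with DMSO and 22.8% and 23.9% with STM3675 (adjusted p = 0.0459). The other, a GGAGT in UQCRC1 (chromosome 3, position 48601466), was at 2.33% and 6.25%, then 13.1% and 17.5% (adjusted p = 0.0217). The libraries of the groups did not overlap, which was a condition for naming these sites. With limma on the arcsine scale the adjusted p was 0.123 for NDUFB7 and 0.0971 for UQCRC1.

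For comparison, of the ribosomal protein genes 14 of 55 fell and of the proteasome genes 22 of 35. In the further list of genes outside the symbol rule, drawn up with results of these data known, 43 of the 50 tested fell. ATPAF2, an assembly factor of ATP synthase, fell from 67.7% and 62.5% to 12% and 10.5%. HIGD1A, a small protein tied to complexes III and IV, stood at 14.8% and 10.7%, then 12% and 11%, with no call. CMC2, a small protein of complex IV biogenesis, went from 91.7% and 97.4% to 12.1% and 11%, and PET100, a complex IV chaperone, had no call at 16.0% and 21.4%, then 37.9% and 7.14%.

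Some first-exon sites sat at the first transcribed base, where the adenosine can be N6-methylated next to the cap by PCIF1 rather than METTL3. Of the member sites, 8 lay at base 1 of a first exon. In 3 of these genes the position coincided with the RefSeq transcription start. Their start regions are shown because they place these sites at the cap end of the transcript, and none is in DRACH. They run 5′ to 3′ on the transcript strand, 8 bases before to 16 after, from RefSeq on GRCh38, with the site's adenosine in capitals:
COX6A1, chr12:120438105-120438129, plus strand: gctgcggcAgtccagatcaaaaatg
NDUFB1, chr14:92121690-92121714, minus strand: cagcttccActggcgcgggttgagt
UQCR11, chr19:1605446-1605470, minus strand: gcctgcgcAgtgtagccgggtcagc

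COX6A1, a regulatory subunit of complex IV, was at 52.9% and 43.4% with DMSO and 51.3% and 41.0% with STM3675 at this base (adjusted p = 0.888), while its last-exon GGACC (chromosome 12, position 120440626) went from 58.8% and 53.1% to 12.7% and 13.9%. The groups overlapped at the first base and lay far apart at the last-exon site. Across the 12 DMSO libraries the first base ranged from 31.3% to 59.5%. NDUFB1, a small complex I subunit, was at 17.4% and 17.0%, then 10.1% and 9.14% (adjusted p = 0.101 in the quasi-binomial test). Tested first-exon sites of these genes outside DRACH and its G-ending form averaged 15.7% with DMSO and 14.8% with STM3675. Methylation and unconverted background therefore cannot be told apart at the NDUFB1 base. The first base of UQCR11 was at 11.1% and 42.1%, then 23.3% and 7.89%, over 18 to 43 reads, too few for the test. The first base of the ATP synthase subunit ATP5MC3 was at 50.0% and 47.2%, then 53.6% and 58.8%, and that of SDHC at 71.4% to 100% over the DMSO libraries, both with too few reads for the test. This chemistry reads any N6-methylated adenosine, so m6A and its cap-adjacent form cannot be told apart by level.

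Across the 6 lines with DMSO, 112 of 228 sites with at least 20 reads in all 12 libraries differed (39.5% of all sites tested did), and 42 of 74 genes (62.5%). By motif, 42 of 88 DRACH sites differed (39.1%) and 70 of 140 others (40.0%). The mean over the 88 DRACH sites was 45.8 ± 0.778% in CAOV3, 42.6 ± 0.335% in A549, 42.3 ± 1.48% in EFO21, 41.5 ± 0.150% in SKOV3, 40.4 ± 0.327% in COV644 and 39.3 ± 0.303% in OE21 (SD, n = 2). In these means, which weight sites equally, both CAOV3 libraries lay above the rest, and EFO21 overlapped A549 and SKOV3. Reads pooled over the same 88 sites gave another order: A549 was highest (57.8 ± 0.758%), CAOV3 next (55.8 ± 1.46%) and EFO21 lowest (51.6 ± 1.06%, SD, n = 2), with OE21 at 53.0 ± 0.824%. Over all DRACH sites of the table, weighted equally, CAOV3 was also highest (48.4%) and OE21 lowest (40.3%), but COV644 came second (44.7%).

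The 2 kinds of site differed between lines in different ways. At the other sites COV644 and OE21 averaged 9.21% and 9.03%, and the remaining lines 15% to 18.9%, and SKOV3 itself split into 16.5% and 21.3%. Of the 70 that differed, 66 were lowest in COV644 or OE21, and 42 were highest in SKOV3. Over all sites outside DRACH the median was also lowest in these 2 lines (4.27% in each, against 10.5% to 12.7%), so a difference in unconverted background between libraries and a difference in methylation cannot be told apart at these sites. Of the 42 DRACH sites that differed, 21 were highest in CAOV3, and the lowest line was COV644 or SKOV3 in 11 each, OE21 in 9, EFO21 in 8 and A549 in 3.

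**Figure D3:**
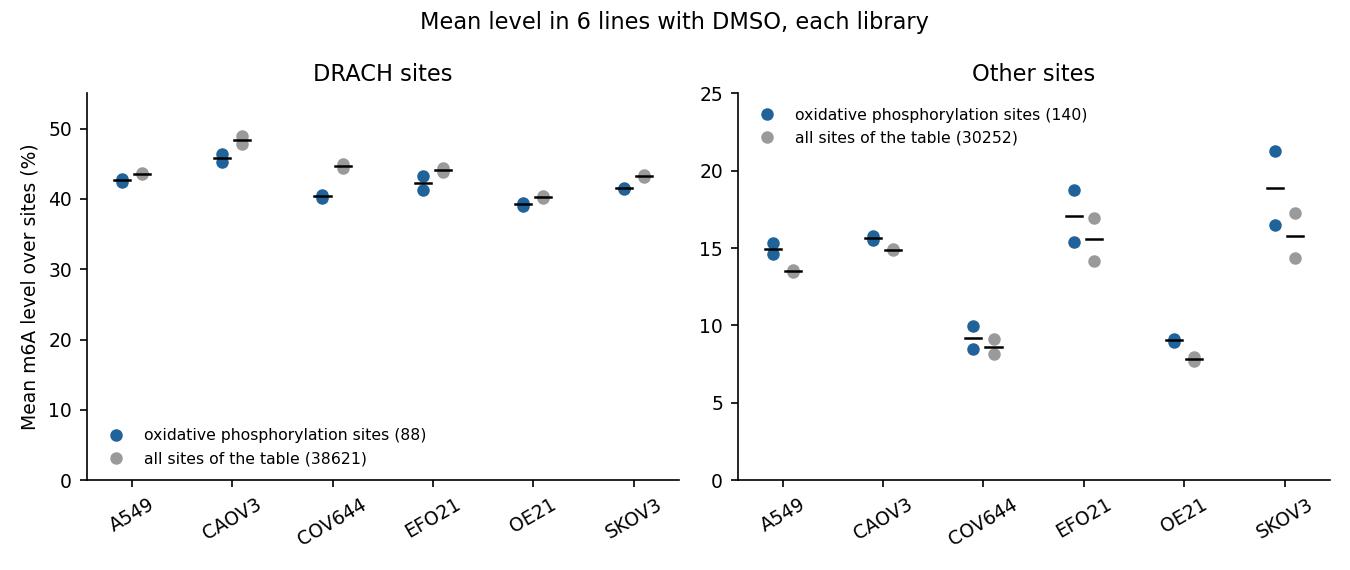
Mean m6A level (%) over DRACH sites (left) and other sites (right) in the 6 lines with DMSO, each point 1 library, black bars the mean of 2, for oxidative phosphorylation sites in blue and all sites in grey. The blue DRACH means lie between 39.3% and 45.8% and the grey ones between 40.3% and 48.4%, with CAOV3 highest in both, and the other sites are lowest in COV644 and OE21.

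Among DRACH sites the widest difference was a GGACT in an internal exon of NDUFAF7 (chromosome 2, position 37247526), at 41.2% and 33.3% in COV644, 25.0% and 24.2% in A549, 19.2% and 25.2% in CAOV3, 16.2% and 17.2% in SKOV3, 12.7% and 18.0% in EFO21, and 8.96% and 8.86% in OE21 (adjusted p = 1.1e-05). COV644 and OE21 did not overlap any other line, and the middle 4 overlapped in part. The NDUFA5 TGACT was at 66.8% and 64.6% in CAOV3, 59.8% and 60.4% in COV644, 53.4% and 50.8% in EFO21, 52.1% and 51.2% in SKOV3, 48.6% and 47.5% in A549, and 44.0% and 44.8% in OE21 (adjusted p = 1.36e-10), with SKOV3 and EFO21 alone overlapping. A GGACG of NDUFA10 (chromosome 2, position 239961051) was at 18.6% and 18.4% in OE21 and 30.8% to 40.6% in the other 10 libraries. limma on the arcsine scale, which takes in each site's own spread between libraries, called 1 of the 228 sites.

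Read coverage, the reads summed over a gene's listed sites, describes depth at those sites and is not a measure of expression. It also depends on where along a gene the reads lie. In such bulk RNA, fewer cells with a transcript and less transcript per cell cannot be told apart. In CAOV3, 31 of 94 tested genes were lower and 9 higher with STM3675 (edgeR quasi-likelihood, adjusted p under 0.05), where 25.7% of all genes were lower and 27.0% higher, or 52.8% either way. The median log2 change was -0.19, against -0.01 over all genes. Scaling by library totals in place of trimmed means gave 50 lower and 5 higher, with the median of all genes at -0.15. Subunit genes were lower in 27 and higher in 5 of 72 cases (median log2 change -0.24), and assembly factor genes in 4 and 4 of 21 (median 0.03).

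Of the core genes of complex I, NDUFS1, NDUFS3, NDUFS7, NDUFS8, NDUFV1 and NDUFV2 were lower, by log2 0.29 for NDUFS3 to 0.87 for NDUFV2, and without STM3675 replicate 1 the count of these 6 was 2. NDUFV2, a subunit of the NADH-binding module, had 190 and 227 reads with DMSO and 152 and 140 with STM3675, in deeper libraries (log2 change -0.87, SE 0.17, adjusted p = 0.00193). NDUFS4, an accessory subunit of the matrix arm, had 110 and 87 reads, then 59 and 78 (log2 change -0.87, SE 0.27, adjusted p = 0.0213), a call that was lost without STM3675 replicate 1. Of the other accessory subunits 10 were lower too and 2 higher, out of 28 tested in that group. Proteasome genes, 25 of 35 lower with a median log2 change of -0.50, were lower in a larger share than the 31 of 94 members.

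The largest fall was in SDHAF1, with 854 and 1004 reads with DMSO and 257 and 202 with STM3675 (log2 change -2.38, SE 0.12, adjusted p = 5.31e-07), a level of 0.192 of the DMSO value. The largest increase was in UQCRFS1, with 4784 and 4751 reads, then 12350 and 10810 (255 and 253, then 466 and 492 RPM, log2 change 0.92, SE 0.07, adjusted p = 3.69e-06). So 2 genes whose summed m6A fell from 65.6% and 71.8% in the means moved in opposite directions in coverage. ATP5MG, a membrane subunit of ATP synthase, rose too, from 188 and 195 to 428 and 394 reads (log2 change 0.75, SE 0.14, adjusted p = 0.00127).

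Others that were higher were ATP5MJ, NDUFA1, NDUFV3, NDUFAF1, NDUFAF8, COX10 and COX14. COX10 rose by log2 0.51 (SE 0.10, adjusted p = 0.00238) and ATP5MJ by 0.53 (SE 0.14, adjusted p = 0.00914, lost without STM3675 replicate 2). NDUFA1, an accessory subunit of complex I, had 200 and 158 reads, then 335 and 293 (log2 change 0.45, SE 0.16, adjusted p = 0.0345), and lost the call with DESeq2, with library totals and in 3 of the 4 fits with a library left out. UQCR11 was lower, with 789 and 758 reads, then 525 and 473 (log2 change -0.99, SE 0.10, adjusted p = 3.28e-05). COX6B2, a testis form of a complex IV subunit, was lower (168 and 172, then 92 and 93 reads, log2 change -1.23, SE 0.19, adjusted p = 0.000431), but over its sites outside DRACH the adjusted p was 0.228. COX7A2L, COX15 and COX16 had no call in coverage. Without STM3675 replicate 1 the counts were 14 lower and 4 higher, without STM3675 replicate 2 they were 19 and 4, and without DMSO replicate 2 there were 15 higher.

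**Figure D4:**
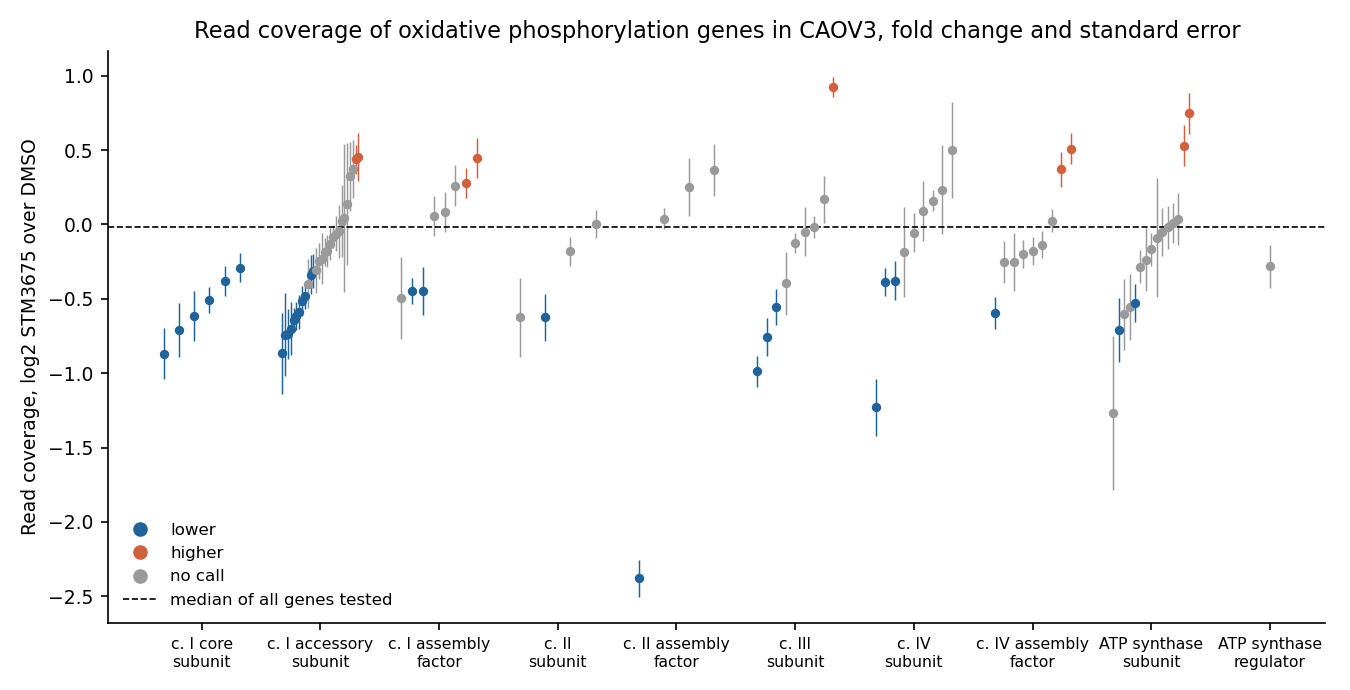
Change in read coverage of tested genes in CAOV3, 1 left out (log2, STM3675 over DMSO, with its standard error), grouped by role, with a dashed line at the median of all genes tested. The complex I core genes shown lie below the line, SDHAF1 lies lowest at -2.38, and UQCRFS1 highest at 0.92.

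Within genes the coverage of UQCR11 changed unevenly. Tested site by site, 87 of 684 sites were lower and 9 higher (4.29% and 6.90% over all sites). Neighbouring sites share reads, so these sites are not independent, and a few genes supplied many of the 87. All 17 tested sites of SDHAF1 were lower, as were 11 sites in the distal part of the last exon in each of UQCR11 and NDUFA10. Unequal change along the gene was found in 4 of 79 genes (7.45% of all genes): UQCR11 (adjusted p = 2.2e-16), NDUFA10 (1.88e-06), SDHD (0.0138) and NDUFA9 (0.0430), from edgeR fits per site. Only UQCR11 was called in each fit with 1 library left out, and it alone remained without either STM3675 library, where 24 and 30 sites were lower, while 14 and 16 genes were called without DMSO replicates 1 and 2. In UQCR11 the 19 sites more than 200 bases into the last exon, a limit set after seeing the profile, had 609 and 566 reads with DMSO and 172 and 154 with STM3675. The 3 other sites had 180 and 192 reads, then 353 and 319.

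The far part therefore held 77.2% and 74.7% of the UQCR11 reads with DMSO and 32.8% and 32.6% with STM3675, and 59.6% to 81.8% in the DMSO libraries of the other 5 lines. Of its 12 tested sites 11 were lower, by log2 1.71 to 3.39, while the other 3 sites were at log2 0.43 to 0.75 with no call. The highly methylated TGACT lies 212 bases into this exon. No listed site lies between bases 71 and 206, so where the change begins, and how far that is from the TGACT, cannot be told. In NDUFA10 the 15 sites more than 2000 bases into the last exon held 23.8% and 23.3% of reads with DMSO and 11.3% and 9.97% with STM3675, and 11 of 13 tested were lower. In the other lines with DMSO this share ran from 11.4% in an OE21 library to 35.0% in a SKOV3 library, so OE21 was close to treated CAOV3. The NDUFA10 call was lost when either STM3675 library was left out (adjusted p of 0.124 and 0.607).

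**Figure D5:**
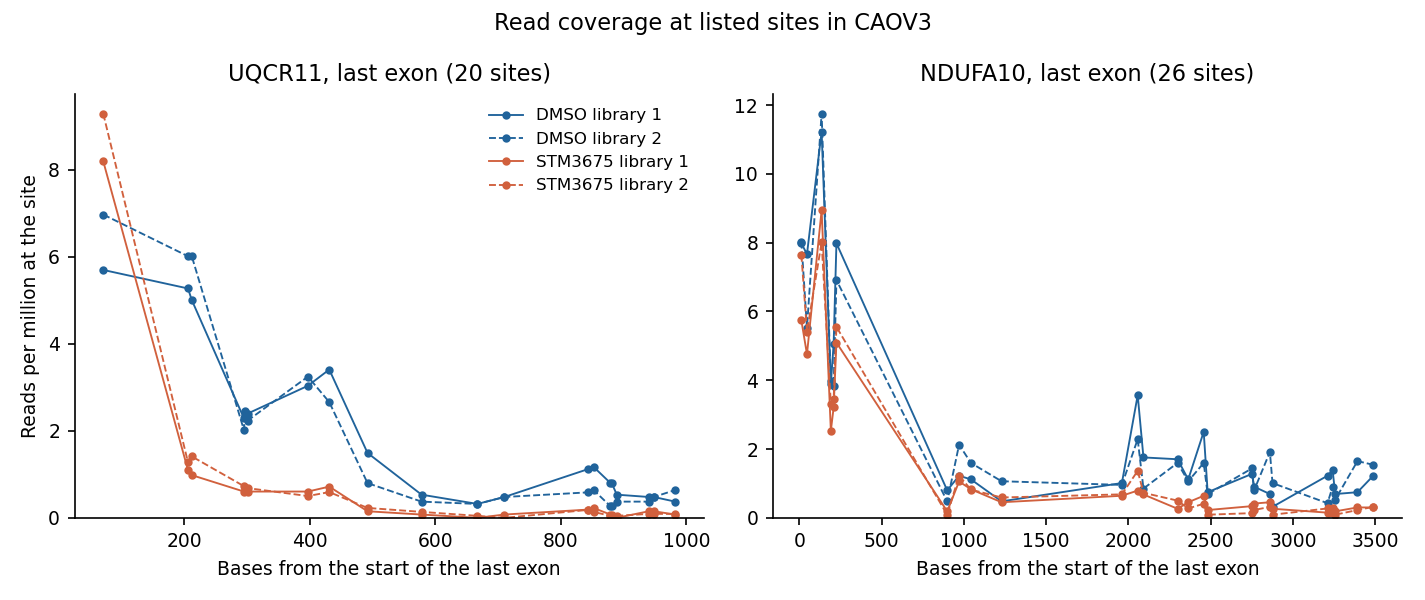
Coverage (RPM, labelled in full on the axis) at each listed site of the last exon of UQCR11 (left) and NDUFA10 (right) in CAOV3, plotted against bases from the start of that exon, with DMSO libraries in blue and STM3675 libraries in orange. In UQCR11 the STM3675 lines lie above DMSO at the start of the exon and below it beyond 200 bases, and in NDUFA10 they lie below at the far sites.

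Between the lines coverage differed for 90 of 98 genes (99.1% of all genes). OE21 had the highest coverage for 38 of the 98 genes (38.8%, against 19.0% of all genes) and SKOV3 for 4 (4.08%, against 15.3%). The widest gap was in UQCRH, the hinge protein of complex III. It had 5 and 11 reads in the SKOV3 libraries and 2855 to 7840 in each of the other 12, so that OE21 exceeded SKOV3 by 790-fold with a floor of 3 reads per library. Its near-identical copy UQCRHL had 0 and 1 reads in SKOV3 and 42 to 195 elsewhere, or 1.47% to 2.71% of the UQCRH count, and reads could be split between the copies, so which of them is read is uncertain.

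Tissue-restricted forms of complex IV subunits were among the other wide gaps. COX7B2, a testis form, had 1530 and 926 reads in SKOV3 and 1 to 5 in each other library, and COX6B2 had 523 and 478 in COV644. COX7A1, the muscle form, was low everywhere, with 27 and 9 reads in EFO21 and 22 and 17 in SKOV3. SKOV3 thus had the lowest UQCRH and the highest COX7B2 coverage of the 6 lines.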

How the data were processed

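Human cancer cell lines were profiled by GLORI, with 2 libraries per group in 7 groups. The authors deposited a single table with, for each site and line, the fraction of reads that kept A and the read count behind it; per the file headers these come in columns marked D and T with a replicate number, read here as DMSO and treated (STM3675). Cutadapt and STAR were used with genome GRCh38, per the submitters' processing notes; the site caller and its settings were not given in the sources used here. Multiplied together, fraction and count gave a whole number within 1e-06 for all entries (share 1), so converted and unconverted reads were recovered. The highest count was 10040. All listed sites had 20 or more reads and a fraction of 0.25 or more in a DMSO library. There were 0 columns outside the labelled samples, and 469 sites stood under more than 1 gene. Handling of duplicate reads is not given, so errors cover counting and the spread between libraries only. Spike-ins are not analysed here.

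Levels were tested on reads with a quasi-binomial model per site, or per gene over its tested sites, with dispersions moderated by limma 3.58.1 (squeezeVar), at 20 or more reads in every library compared. In the main site tests the moderation gave a single dispersion for all sites, 1.67 in CAOV3 and 1.71 across lines. Read counts per gene were tested with edgeR 4.0.16 (TMM, quasi-likelihood). All fits ran on the whole table, with Benjamini-Hochberg adjustment over it and a threshold of 0.05. Scripts were tested on simulated data. Alternatives were limits of 10 and 50 reads, limma on arcsine square roots, DRACH sites only, sites that passed in another line, DESeq2 1.42.0, library totals, no filter, a replicate block, and leaving out each library. Software was R 4.3.3, data.table (version 1.17.8), Python 3.11.15, numpy 2.4.6, pandas 2.3.3 and matplotlib 3.10.9. The chi-square per degree of freedom between replicates was 3.58 to 19.2, so none were merged. Deviations of same-numbered libraries correlated at -0.0301 to 0.0242.

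Named in the text are the 15 largest falls, 1 per gene, and up to 5 rises with 50 or more reads and no overlap; the 3 highest ratios; the highest and lowest gene per role; the genes with most sites; a fixed list of core genes; the 10 widest line differences, of which some are given; and the 5 largest coverage changes each way. Genes named outside this rule (first-base sites, within-gene coverage) were chosen after their values were seen. The members and lists were chosen with earlier results of these data known. A gene of complex I is not reported here by name.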

Additional observations from a re-analysis of the deposited data

How the results depend on the processing

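No tested change turned its direction, but the order of the lines did: over DRACH sites CAOV3 was highest and OE21 lowest with sites weighted equally, and A549 highest and EFO21 lowest with reads pooled (a range of 6.15 against 6.52 percentage points). In CAOV3 the fall at DRACH sites, 29.3 percentage points in the main analysis, was a change of -27.6 with a limit of 10 reads, -32.4 with 50 reads, and -38.5 from summed reads. Across lines, the 112 differing sites became 48 of 88 with DRACH sites only, 1 with limma, and 55 of 75 with a limit of 50 reads; the 42 differing genes became 22 of 42 with DRACH sites only and 26 of 41 with 50 reads. For coverage, library totals gave 50 lower and 5 higher in place of 31 and 9. Leaving out 1 library, which leaves a lone library assumed to vary like the others, gave 14 to 43 lower and 4 to 15 higher genes, 2 to 6 lower genes among the named complex I core, 24 to 119 lower sites (87 with all), and 1 to 16 genes with unequal coverage along the gene (4 with all). The tests of coverage by site and along genes were chosen after seeing the data. Same-numbered libraries shared only a number; with a replicate block the counts were 75 CAOV3 sites, 35 CAOV3 genes, 114 line sites, 45 line genes, 31 lower and 8 higher coverage, and 3 genes uneven along their length. The causes of these changes were not tested. With 16 to 32 median reads per site in a library, 412 of 778 sites could be tested in CAOV3.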
